A study of Mus musculus with 3 samples.

Results

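The replication machinery and the enzymes that supply it with deoxyribonucleotides were followed through 44 genes in CD8 T cells of mice, with 1 array for each of 3 populations. The genes were chosen by name, with earlier results of these data known. Of them, 17 act in origin licensing and the replicative helicase. Another 22 are polymerases, clamp proteins and their partners at the fork, and 5 are nucleotide enzymes. Probe sets naming a gene alone were found for 43 of the 44, among 18194 named genes on the arrays, and the expression of Chaf1a was not analysed here. The 43 genes had 93 probe sets, of which 80 lay above the floor of 31.7 (the median of all values) on at least 1 array.

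All 3 populations carry CL4-TCR, a transgenic receptor through which CD8 T cells recognise hemagglutinin (HA) of influenza virus, and all came from MLN, the mesenteric lymph node. The CL4-TCR group has that receptor and no HA transgene in its label. In Villin-HA + CL4-TCR and in VILLIN-HA/CL4-TCR, HA is under the promoter of villin, a gut epithelial protein, so the antigen comes from the epithelium and not from the T cells. The series lists a plain, an activated and a regulatory population, and the labels do not state which of the HA populations is the regulatory one. The sources used here do not give strain, age, number of animals or cell sorting.

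Before a cell copies its DNA, the origin recognition complex, Cdc6 and Cdt1 load rings of MCM proteins onto origins, a step called licensing. The kinase Cdc7 with Dbf4, together with Cdc45, GINS and Mcm10, then turns these rings into active helicases, and primase, polymerases, the sliding clamp PCNA and its loader RFC build the new strands. Ribonucleotide reductase, thymidylate synthase, thymidine kinase and dUTPase set the supply of deoxyribonucleotides. Resting T cells keep many of these genes low and raise them on entry into the cell cycle, largely through E2F transcription factors.

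CD8 T cell transcripts were abundant on all arrays: all 10 named CD8 T cell markers lay above the floor, with summed signals of 20435 on CL4-TCR, 17627 on VILLIN-HA/CL4-TCR and 18780 on Villin-HA + CL4-TCR. Signals and differences below keep that order. Of 3 CD4 T cell markers, 1 lay above the floor on CL4-TCR and none on the HA arrays, and Cd4 itself was below it on each array. Signals of markers of other cell types differed between arrays. The summed signal of 10 macrophage and monocyte markers was 286, 1607 and 918, that of 6 neutrophil markers 109, 69.0 and 1557, that of 6 skeletal muscle genes 126, 142 and 4989, and that of 7 B cell markers 311, 499 and 425. It was 1696, 2852 and 2522 for 6 plasma cell markers, 132, 73.2 and 494 for 5 dendritic cell markers and 126, 128 and 842 for 6 stroma markers. Most of the plasma cell sum was Xbp1 (1521, 1695 and 2036) and Irf4 (49.6, 887 and 339). Jchain had 61.0, 178 and 74.9, and Sdc1 and Tnfrsf17 were below the floor on all arrays. Among the dendritic cell markers Itgax had 38.9, 43.5 and 431 and Zbtb46 54.9, 4.2 and 16.9. Flt3, Xcr1 and Siglech were below the floor on all arrays. The 3′ to 5′ signal ratio of the Gapdh controls, which is lower where RNA is more intact, was 18.4, 46.2 and 3.35, and that of the Actb controls 1.98, 2.46 and 1.80. The part of these other cells and of RNA quality in the results below was not tested.

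Most replication genes were higher on both HA arrays than on the CL4-TCR array. Against CL4-TCR, 30 of 43 genes were at least 2-fold higher on VILLIN-HA/CL4-TCR and none was 2-fold lower, where 7.43% of all 11260 measured genes were higher and 6.63% lower. On Villin-HA + CL4-TCR, 34 of 43 were higher and none was lower, against 11.9% and 9.53% of 12196 measured genes. Of the replication genes counted higher, 8 on each HA array lay at or below the floor on CL4-TCR and could not have been counted lower. By role these were 5 licensing and helicase genes, 2 polymerase, clamp and fork genes and 1 nucleotide enzyme. Over all genes this held for 246 of 837 counted higher on VILLIN-HA/CL4-TCR and 531 of 1454 on Villin-HA + CL4-TCR. The median log2 difference was 1.63 and 1.96 for the replication genes and -0.04 and 0.06 for all measured genes. In all, 29 genes were higher on both HA arrays, 1 on VILLIN-HA/CL4-TCR alone, 5 on Villin-HA + CL4-TCR alone, and 8 on neither. These comparisons share the CL4-TCR array. With 1 array in each group there is no replicate spread and no test, and a larger share of cycling cells cannot be told apart from more RNA per cell.

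The only measure of error is the disagreement between probe sets of 1 gene, as an SD of their log2 differences. It was 0.43 over all genes and 0.67 over the replication genes on VILLIN-HA/CL4-TCR relative to CL4-TCR. On Villin-HA + CL4-TCR it was 0.65 and 0.78. On the CL4-TCR array 34 of the 43 genes lay above the floor, and on each HA array all 43 did. The other 9 (Mcm10, Gins2, Cdc6, Cdc45, Orc1, Rfc3, Clspn, Tyms and Tk1) could be measured only through the HA arrays, so a fold given for them is a lower bound and that filter left no other direction open to them. With the log2 values of all probe sets of a gene averaged, 25 and 30 genes were higher in place of 30 and 34. The size of the differences depended on the probe set: over 28 genes with several measured probe sets, the median log2 difference on VILLIN-HA/CL4-TCR was 1.73 by the brightest and 0.38 by the dimmest, which was the smaller in 28 of 28, and on Villin-HA + CL4-TCR it was 1.93 and 0.83, smaller in 19 of 28. Over 5662 named genes the dimmest gave the smaller value in 3126 and 2606. Dim probe sets lie nearer to the floor. The brightest probe set was picked by its mean signal over all arrays, the HA arrays included. That choice can favour probe sets that are high on the HA arrays, and it underlies the counts above.

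**Figure D1:**
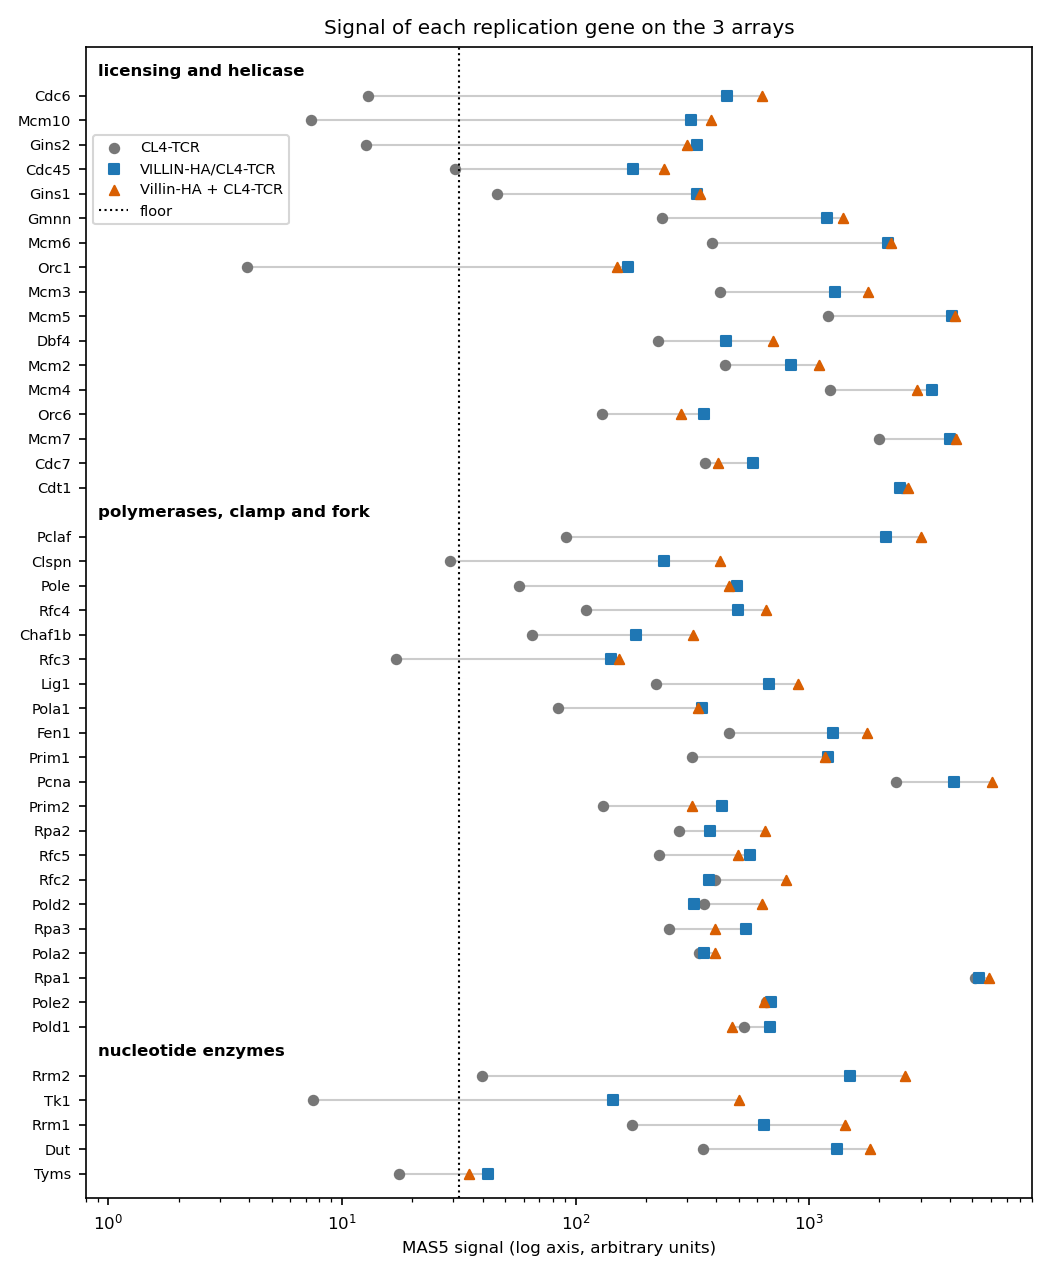
MAS5 signal of each of the 43 replication genes (log axis) on the CL4-TCR (circle), VILLIN-HA/CL4-TCR (square) and Villin-HA + CL4-TCR (triangle) arrays, by the probe set of highest mean signal, with the floor of 31.7 dotted. Most circles lie left of both other symbols, while Cdt1, Rpa1, Pola2 and Pole2 show 3 symbols close together.

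**Figure D2:**
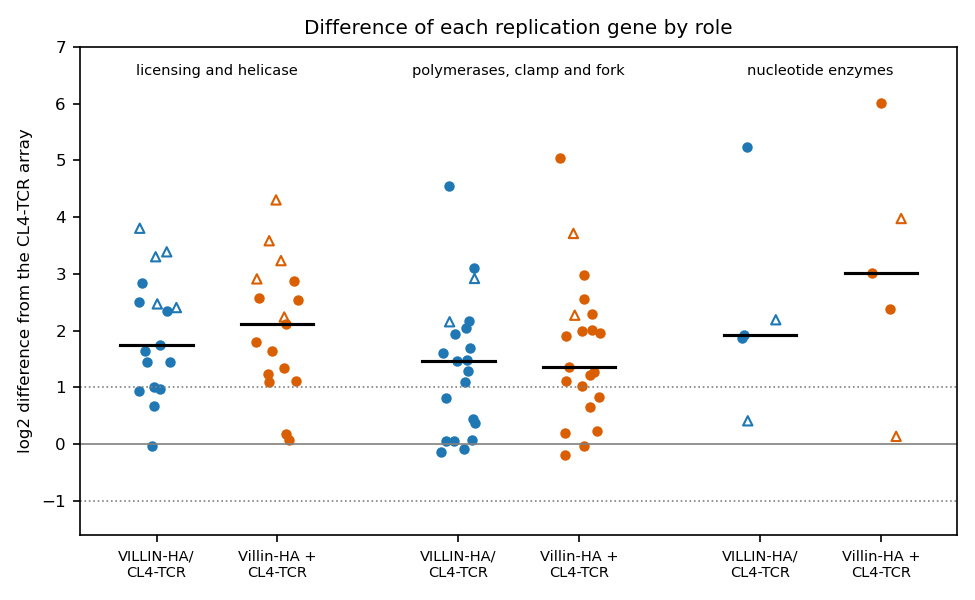
Log2 difference of each gene from the CL4-TCR array, by role and HA array. Filled points were above the floor on both arrays, open triangles are lower bounds, black bars are medians (1.76 and 2.12 for licensing and helicase, 1.47 and 1.37 for polymerases, clamp and fork, 1.92 and 3.03 for nucleotide enzymes), and dotted lines mark a 2-fold difference.

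The promoters of these genes are shown as a description, since E2F factors are textbook regulators of replication genes. The shares below cover all members with a promoter, whether or not they were higher. Why the members were higher was not tested. RefSeq promoters (GRCm38.p6, 250 bases before to 50 from the annotated start) were found for 37 of the 44 genes; those of Mcm4, Gins1, Gins2, Gmnn, Rfc2, Prim2 and Pole were not used. An E2F motif (TTTCCCGC, TTTCGCGC, TTTGCCGC or TTTGGCGC, on either strand) was present in 14 of 37, or 37.8%. It was present in 2.6% of all 27025 genes with a promoter and 3.80% of the 14369 of them on the array. The motif CCAAT, bound by NF-Y, was present in 22 of 37 (59.5%) against 41.1% of all genes and 42% of the array genes. TTTGAA, the CHR motif of late cell cycle genes, was present in 6 of 37 (16.2%) against 20.2% of all genes and 15.7% of the array genes. The members thus lay between these shares. Chaf1a is among the 37. Median GC content was 61.3% in the members' promoters and 52.7% in all promoters, and the E2F motif is itself GC-rich. The sequences below, 5′ to 3′ on the gene's strand and ending at the base before the start (3 bases after it for Pclaf), carry E2F and CCAAT matches in capitals, on either strand. Mcm5, Mcm6, Orc1, Cdc6, Pclaf and Pola1 are shown for their E2F matches, and Rrm2 because it had the largest difference on both HA arrays and no E2F match.
Mcm5 (chr8:75109349-75109508, + strand): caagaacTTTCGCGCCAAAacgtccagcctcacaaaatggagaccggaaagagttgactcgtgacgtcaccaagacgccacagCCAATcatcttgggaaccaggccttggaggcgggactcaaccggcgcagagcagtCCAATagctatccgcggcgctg
Mcm6 (chr1:128359706-128359825, - strand): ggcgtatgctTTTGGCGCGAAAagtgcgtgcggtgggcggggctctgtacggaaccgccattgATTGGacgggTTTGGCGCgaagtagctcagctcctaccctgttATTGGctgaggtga
Orc1 (chr4:108579324-108579453, + strand): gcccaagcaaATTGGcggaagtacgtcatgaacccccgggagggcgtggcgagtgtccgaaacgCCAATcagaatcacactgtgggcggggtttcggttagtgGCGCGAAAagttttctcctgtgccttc
Cdc6 (chr11:98908001-98908150, + strand): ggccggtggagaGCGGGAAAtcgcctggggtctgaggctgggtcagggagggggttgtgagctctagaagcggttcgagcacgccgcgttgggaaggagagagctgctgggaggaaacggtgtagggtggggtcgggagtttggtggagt
Pclaf (chr9:65890243-65890325, + strand): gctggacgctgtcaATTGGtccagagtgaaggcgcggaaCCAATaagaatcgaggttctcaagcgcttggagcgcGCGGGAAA
Pola1 (chrX:93632156-93632305, - strand): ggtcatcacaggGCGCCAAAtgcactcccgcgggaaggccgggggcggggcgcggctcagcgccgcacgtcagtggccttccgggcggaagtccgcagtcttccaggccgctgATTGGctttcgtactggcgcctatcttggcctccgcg
Rrm2 (chr12:24708174-24708253, + strand): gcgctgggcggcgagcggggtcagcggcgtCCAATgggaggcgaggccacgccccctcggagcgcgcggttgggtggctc

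In Mcm5 and at the upstream site of Mcm6, matches on both strands overlapped and form 1 run of capitals, and Mcm6 had a further match between bases -47 and -40, next to a CCAAT match between bases -57 and -53. The match of Pclaf ran from base -5 to base 3 across the start. An E2F match lay wholly before the start in 7 genes (Mcm5, Mcm6, Mcm7, Cdc6, Orc1, Rfc3 and Pola1), across it in Pclaf, and after it alone in 6 (Mcm3, Clspn, Lig1, Cdt1, Pold1 and Pole2). Of 23 genes that were higher on both HA arrays and had a promoter, 11 held an E2F match (47.8%), and of 8 higher on neither, 3 did (37.5%): Cdt1, Pold1 and Pole2, all with the match after the start. The median log2 difference on VILLIN-HA/CL4-TCR was 1.90 for the 14 genes with a match and 1.37 for 22 without. On Villin-HA + CL4-TCR these medians were 2.07 and 1.504. The medians were thus higher with a match on both HA arrays, and the ranges overlapped (from -0.03 to 4.55 with a match and from -0.14 to 5.24 without, on VILLIN-HA/CL4-TCR). At least 2-fold higher there were 11 of 14 genes with a match and 13 of 22 without, a difference that was not tested.

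**Figure D3:**
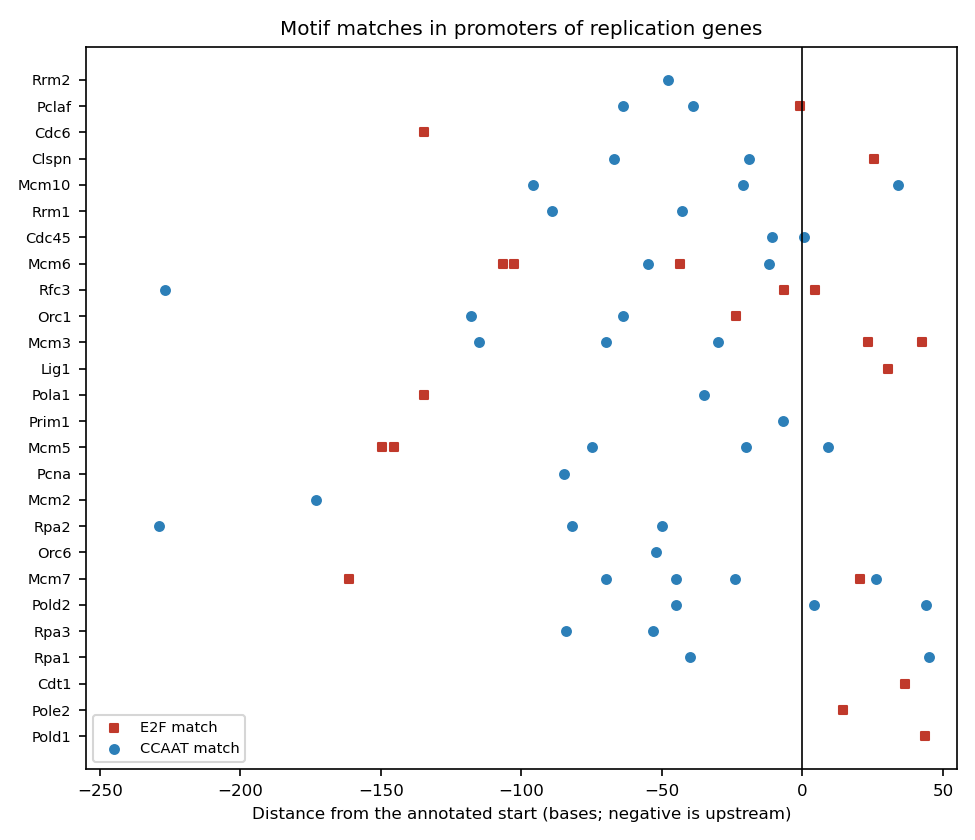
Position of E2F (square) and CCAAT (circle) matches from 250 bases before to 50 after the annotated start (x axis, bases). Members with a match are ordered from the largest to the smallest difference on Villin-HA + CL4-TCR. Chaf1a, which has a CCAAT match and whose expression was not analysed, is not drawn. Rrm2, at the top, has a CCAAT and no E2F match, and the E2F matches of Cdt1, Pole2 and Pold1, at the bottom, lie after the start.

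The genes that encode E2F factors and their partners, a list of 19, were higher for 6 and lower for 1 on VILLIN-HA/CL4-TCR, and higher for 7 and lower for 1 on Villin-HA + CL4-TCR, where 7.43% and 6.63%, and 11.9% and 9.53%, of all measured genes were. E2f1, an activating factor, had signals of 6.6, 98.4 and 183, at least 3.10-fold and at least 5.77-fold higher, while its other measured probe set gave log2 differences of 0 and 1.07. E2f2, another activator, had 94.0, 648 and 573, and E2f8, a repressor that acts late in S phase, 19.3, 146 and 161. Both HA arrays lay above CL4-TCR for each of these factors. The lower genes were Lin37, a subunit of the DREAM repressor complex, at 116, 28.1 and 121, and E2f6, a repressor, at 332.5, 338 and 158. Each was lower on 1 HA array and at most 1.05-fold from CL4-TCR on the other. The pocket proteins, which hold E2F factors in check, were not counted by their brightest probe sets. Rb1 had 434.5, 867 and 731, log2 differences of 0.997 and 0.75 and so just short of 2-fold on VILLIN-HA/CL4-TCR. Rbl1 had 0.02 and -0.13 and Rbl2 -0.18 and 0.09, while other probe sets of these genes reached 1.45 and 1.14 on Villin-HA + CL4-TCR.

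Licensing and helicase genes were higher for 13 of 17 on VILLIN-HA/CL4-TCR and 15 of 17 on Villin-HA + CL4-TCR, with medians of 1.76 and 2.12. Cdc6, which loads MCM rings at origins, had a signal of 12.9 on CL4-TCR, 443.5 on VILLIN-HA/CL4-TCR and 627 on Villin-HA + CL4-TCR, at least 14.0-fold and at least 19.8-fold higher. Mcm10, which helps to fire the loaded helicase, had 7.4, 313 and 381, at least 9.88-fold and 12.0-fold. Gins2, a subunit of the GINS part of the helicase, had 12.7, 332.5 and 299, at least 10.5-fold and 9.42-fold. For all 3 genes the CL4-TCR signal lay below the floor and both HA signals were of like size. Cdc45, the other helicase partner, had 30.6, 176 and 239, at least 5.55-fold and 7.54-fold. Gins1 had 46.3, 332 and 340.4, or 7.18-fold and 7.35-fold. By their chosen probe sets, Mcm10, Gins1, Gins2 and Cdc45 thus stood at least 5.55-fold above CL4-TCR on both HA arrays. A second, dim probe set of Gins1 had log2 differences of 0.28 and 0.52 and one of Mcm10 0 and 0.41. A second probe set of Cdc45, above the floor on all arrays, gave 1.13 and 1.58.

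The MCM ring itself was detected on the CL4-TCR array. By its brightest probe sets it mostly differed less in fold. Mcm6 had 383, 2182 and 2236, which is 5.70-fold and 5.84-fold, and its other measured probe set gave log2 differences of 2.41 and 2.78. Mcm5 had 1209, 4082 and 4202 (3.38-fold and 3.48-fold) and Mcm3 414, 1286 and 1795 (3.10-fold and 4.33-fold). The 3 measured probe sets of Mcm5 ran from 0.45 to 1.76 and from 0.78 to 3.10 on the log2 scale. Those of Mcm3, 5 in number, ran from 0.68 to 1.63 and from 0.27 to 2.54. For Mcm4 the signals were 1227, 3366 and 2897, for Mcm7 1990, 4006 and 4271, and for Mcm2 435, 836 and 1102. By their brightest probe sets all 6 subunits lay above CL4-TCR on both HA arrays, and each passed 2-fold except Mcm2 on VILLIN-HA/CL4-TCR, at 1.92-fold. A second probe set of Mcm2, with 538, 818 and 617, gave log2 differences of 0.61 and 0.20. Mcm7 was just past the limit, at 2.01-fold and 2.15-fold, and its 4 measured probe sets ran from -0.61 to 1.07 and from 1.10 to 2.36 on the log2 scale.

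Among the factors that control licensing, Gmnn, which encodes the Cdt1 inhibitor geminin, had 234, 1196 and 1403 (5.11-fold and 5.99-fold). Cdt1, its target and the loader of MCM rings, had 2498, 2439 and 2643, log2 differences of -0.03 and 0.08. Its second measured probe set gave -0.24 and 0.23. Geminin transcript was thus higher on both HA arrays and Cdt1 transcript differed by less than the SD between probe sets of 1 gene. Orc1, the subunit of the origin recognition complex that comes and goes with the cell cycle, had 3.9, 168 and 150, at least 5.31-fold and 4.73-fold, and Orc6 had 130, 354 and 282 (2.73-fold and 2.17-fold). Of the kinase that fires origins, the regulatory subunit Dbf4 had 225, 441 and 702.5 (1.96-fold and 3.12-fold), while the catalytic subunit Cdc7 had 360, 574 and 406 (1.60-fold and 1.13-fold). The second probe set of Cdc7 gave log2 differences of -0.72 and 0.40, so Cdc7 had no common direction.

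Polymerase, clamp and fork genes were higher for 13 of 21 on VILLIN-HA/CL4-TCR and 15 of 21 on Villin-HA + CL4-TCR, with medians of 1.47 and 1.37. Pclaf, a small PCNA-binding protein also called PAF15, had the largest difference here, with 91.4, 2137 and 3007 (23.4-fold and 32.9-fold). Its second measured probe set reached no more than 38.3 on any array. Clspn, the checkpoint mediator claspin, had 28.9, 240.2 and 416, at least 7.58-fold and 13.1-fold, and its second measured probe set, with 9.1, 39.6 and 9.0, gave log2 differences of 0.32 and 0. By the brightest probe set of each gene the larger value was on Villin-HA + CL4-TCR. Pcna, the sliding clamp itself, had 2365, 4166 and 6093, that is 1.76-fold and 2.58-fold. The clamp thus differed far less than Pclaf in fold, by 1 probe set for Pcna.

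Among enzymes of strand synthesis, Pole, the catalytic subunit of polymerase epsilon on the leading strand, had 57.2, 493 and 454 (8.62-fold and 7.94-fold). Pola1, the catalytic subunit of polymerase alpha that starts each strand, had 84.1, 348 and 334 (4.14-fold and 3.98-fold). The primase subunit Prim1 had 314, 1205 and 1172.5 (3.83-fold and 3.73-fold) and its 2 probe sets agreed within 0.06 on the log2 scale. These genes had nearly equal signals on both HA arrays. Prim2, the other primase subunit, had 131, 425 and 316, or 3.25-fold and 2.42-fold. Pold1 and Pold2, the catalytic and the accessory subunit of polymerase delta, had 528, 681 and 465 and 355, 322.5 and 628, and neither passed 2-fold. By their brightest probe sets, the accessory subunits Pola2 (336, 355 and 394) and Pole2 (656, 685 and 643) were at most 1.17-fold from CL4-TCR on both HA arrays. A second, dim probe set of Pola2, with 59.2, 56.7 and 29.3, gave log2 differences of -0.06 and -0.90. The last signal lay below the floor.

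The clamp loader genes Rfc4 and Rfc3 were higher on both HA arrays, Rfc4 with 111, 498 and 651 (4.50-fold and 5.88-fold) and Rfc3 with 17.0, 141.5 and 153 (at least 4.46-fold and 4.84-fold). A second probe set of Rfc3, with 40.2, 74.4 and 144, gave log2 differences of 0.89 and 1.84, the first short of 2-fold. Rfc5 had 228, 561 and 495, or 2.46-fold and 2.17-fold. Rfc2 had 394, 372 and 799.9 by its brightest probe set, a log2 difference of -0.08 and 1.02, while another gave 1.90 and 2.15. Its direction on VILLIN-HA/CL4-TCR thus depended on the probe set. Of the single-strand binding protein RPA, the large subunit Rpa1 had 5124, 5356 and 5883 (1.05-fold and 1.15-fold). Rpa2 had 277, 378 and 646.5 (1.37-fold and 2.34-fold) and Rpa3 had 251, 539 and 397 (2.15-fold and 1.58-fold). A dimmer probe set of Rpa2, with 38.3, 35.2 and 131, gave log2 differences of -0.12 and 1.78. The 2 small subunits thus each passed 2-fold on a different HA array. For joining of Okazaki fragments, the flap nuclease gene Fen1 had 454.5, 1262 and 1773 (2.78-fold and 3.90-fold) and the ligase gene Lig1 222, 672 and 897 (3.03-fold and 4.05-fold). Chaf1b, of the CAF-1 complex that places histones on new DNA, had 65, 181 and 318 (2.79-fold and 4.90-fold). All 3 were highest on Villin-HA + CL4-TCR.

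Nucleotide enzymes were higher for 4 of 5 genes on both HA arrays. Rrm2, the small subunit of ribonucleotide reductase whose level follows S phase, had 39.8, 1499 and 2578, or 37.7-fold and 64.8-fold. Its other probe sets, below the floor on CL4-TCR, gave log2 differences of at least 3.03 and 3.72 on VILLIN-HA/CL4-TCR and at least 4.17 and 4.74 on Villin-HA + CL4-TCR. Rrm1, the large and more stable subunit, had 175, 638.5 and 1425 (3.65-fold and 8.14-fold). Its other 2 measured probe sets, both dim, gave log2 differences of 0.10 and -0.12 on VILLIN-HA/CL4-TCR and 3.41 and 0.40 on Villin-HA + CL4-TCR, so the first difference rests on 1 probe set. By the brightest probe sets, the small subunit differed more in fold than the large one. Tk1, the thymidine kinase of S phase, had 7.5, 145.0 and 499, at least 4.57-fold and 15.8-fold. Dut, which removes dUTP, had 350, 1319 and 1815 (3.77-fold and 5.19-fold). For these 4 genes the order of the arrays was the same, with Villin-HA + CL4-TCR highest. Tyms, thymidylate synthase, was barely above the floor, with 17.5, 42.2 and 34.9, and none of its 4 probe sets exceeded 42.2, too near the floor for a useful fold.

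Within single complexes, subunits did not move as 1 unit. This grouping into complexes was made after the values were seen, adds genes from the lists of other replication genes and uses the brightest probe set of each. In the origin recognition complex, Orc1 and Orc6 were higher on both HA arrays, while Orc2, Orc3, Orc4 and Orc5 had log2 differences of 0.13, 0.40, -0.16 and -0.15 on VILLIN-HA/CL4-TCR and -0.51, -0.12, -0.83 and 0.21 on Villin-HA + CL4-TCR, though another probe set of Orc2 reached 1.24 there. In GINS, Gins1 and Gins2 were higher and Gins3 (-0.22 and 0.37) and Gins4 (0.48 and 0.75) were not. In polymerase epsilon, Pole was higher and Pole2 (0.06 and -0.03), Pole3 (-0.07 and 0.71) and Pole4 (-0.39 and -0.89) were not, with the probe sets of Pole3 running from -0.83 to 1.28 on Villin-HA + CL4-TCR. In polymerase delta, none of 4 subunits passed 2-fold on either HA array (from -0.18 to 0.82), but other probe sets of Pold3 reached 1.13 and 2.09. In replication factor C, the large subunit Rfc1 stayed at 0.34 and 0.60 beside the higher Rfc3, Rfc4 and Rfc5. In the MCM ring, by contrast, 5 of 6 and 6 of 6 subunits passed 2-fold. Another probe set of Mcm2 gave 0.61 and 0.20, however, and those of Mcm7 ran from -0.61 to 1.07 on VILLIN-HA/CL4-TCR. Of Mcm3 and of Mcm5, a dim probe set also fell short of 2-fold on both HA arrays.

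The lists of other genes of the same pathways held genes of both directions, to be read against 7.43% higher and 6.63% lower of all measured genes on VILLIN-HA/CL4-TCR and 11.9% and 9.53% on Villin-HA + CL4-TCR. Of 15 further licensing and helicase genes, 2 were higher on each HA array, a share near that of all genes. They were Ticrr, an origin firing factor (at least 2.88-fold and 3.09-fold, with a probe set at 0 and one at 0.19 on the log2 scale), and Mcm8, a helicase of repair (2.31-fold and 2.48-fold). Lower was 1 gene, on Villin-HA + CL4-TCR, the MCM-binding Mcmbp (2.82-fold), whose probe sets ran from -1.63 to 0.31. Of 24 further fork genes, 9 were higher and 1 lower on VILLIN-HA/CL4-TCR and 11 higher and 1 lower on Villin-HA + CL4-TCR. Top2a, the topoisomerase that untangles copied DNA, had 57.6, 1184 and 1532 (20.5-fold and 26.6-fold). Uhrf1, which guides maintenance of DNA methylation, had 35.5, 196 and 448 (5.52-fold and 12.6-fold). Both HA arrays exceeded CL4-TCR for these genes. Dscc1, of an alternative clamp loader, was 7.58-fold and 6.84-fold higher and the nuclease gene Dna2 6.93-fold and 7.98-fold, though a second probe set of Dscc1 gave 0.04 and 0 and one of Dna2 0 and 0.89 on the log2 scale. The lower gene was Chtf8, of the same loader, at 357, 141 and 150 (2.53-fold and 2.38-fold lower).

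Of 40 further measured nucleotide synthesis genes, 5 were higher and 4 lower on VILLIN-HA/CL4-TCR, and 8 higher and 2 lower on Villin-HA + CL4-TCR, not far from the shares of all genes. Paics, an enzyme of purine synthesis, had 1176, 2936 and 3544 (2.5-fold and 3.01-fold), and Pnp, purine nucleoside phosphorylase, 672, 1422 and 1457 (2.12-fold and 2.17-fold). Shmt1, which feeds one-carbon units to thymidylate synthesis, had 88.4, 426 and 235 (4.82-fold and 2.66-fold). The HA arrays parted for several others. Atic, which completes synthesis of the purine precursor IMP, had 1207, 1177 and 520 and Uck2, a uridine kinase, 632, 834.5 and 289. Both were thus lower on Villin-HA + CL4-TCR alone, although the probe sets of Uck2 ran from -1.13 to 0.44. Samhd1, which breaks down deoxyribonucleotides, had 1058, 752 and 3176, and Cmpk2, a mitochondrial nucleotide kinase induced by interferon, 157, 125 and 458. The probe sets of Samhd1 ran from -1.30 to 3.06 on Villin-HA + CL4-TCR, so its direction there depended on the probe set. Tk2, the mitochondrial thymidine kinase, was 2.22-fold lower on VILLIN-HA/CL4-TCR and 1.53-fold lower on Villin-HA + CL4-TCR.

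Between the HA arrays, the replication genes differed little by their brightest probe sets. Of 43 genes, none was 2-fold higher and 3 were 2-fold lower on VILLIN-HA/CL4-TCR than on Villin-HA + CL4-TCR, against 6.13% higher and 8.95% lower of 12081 measured genes. The 3 were Tk1 (3.44-fold), Rrm1 (2.23-fold) and Rfc2 (2.15-fold). The median log2 difference was -0.15, with 29 genes below 0 and 14 above, and it turned to 0.11 once all arrays were scaled to 1 median, with Tk1 the 1 gene still past 2-fold. By role the medians were -0.09 for licensing and helicase, -0.15 for polymerases, clamp and fork and -0.78 for nucleotide enzymes. The 5 genes past 2-fold on Villin-HA + CL4-TCR alone (Mcm2, Dbf4, Pcna, Rfc2 and Rpa2) differed from VILLIN-HA/CL4-TCR by -0.40, -0.67, -0.55, -1.11 and -0.77, so Rfc2 alone of them differed by 2-fold between the HA arrays.

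Probe sets of 1 gene disagreed in this comparison. Of 28 genes with several measured probe sets, 8 had probe sets at least 2-fold apart: Cdc7, Clspn, Mcm3, Mcm5, Mcm7, Pold1, Rpa2 and Rrm1. For Mcm7, 1 probe set had 1990, 4006 and 4271 and another 229, 151 and 1176, so the log2 difference between the HA arrays was -0.09 by the first and -2.96 by the second. For Rrm1, the brightest gave -1.16 and a dimmer one, with 24.4, 34.0 and 336, gave -3.30. For Mcm5 the corresponding values were -0.04 and -1.72. These dimmer probe sets, picked for their size, placed Villin-HA + CL4-TCR further above VILLIN-HA/CL4-TCR. The dimmest measured probe set went the other way in Rrm1, at -0.52, in Clspn, from -0.79 to 0.32, and in Mcm3, from -0.48 to 0.40. Over the 28 genes the median was -0.13 by the brightest and -0.42 by the dimmest measured probe set, which lay lower in 20 and higher in 8. The same held in direction and less in size over 5662 named genes with several measured probe sets, at 0.07 and -0.05. The 3′ to 5′ ratios on VILLIN-HA/CL4-TCR and on the other HA array were 46.2 and 3.35 for the Gapdh controls and 2.46 and 1.80 for the Actb controls. Where each probe set lies along its transcript was not analysed here, and the part of RNA quality in these differences was not tested.

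**Figure D4:**
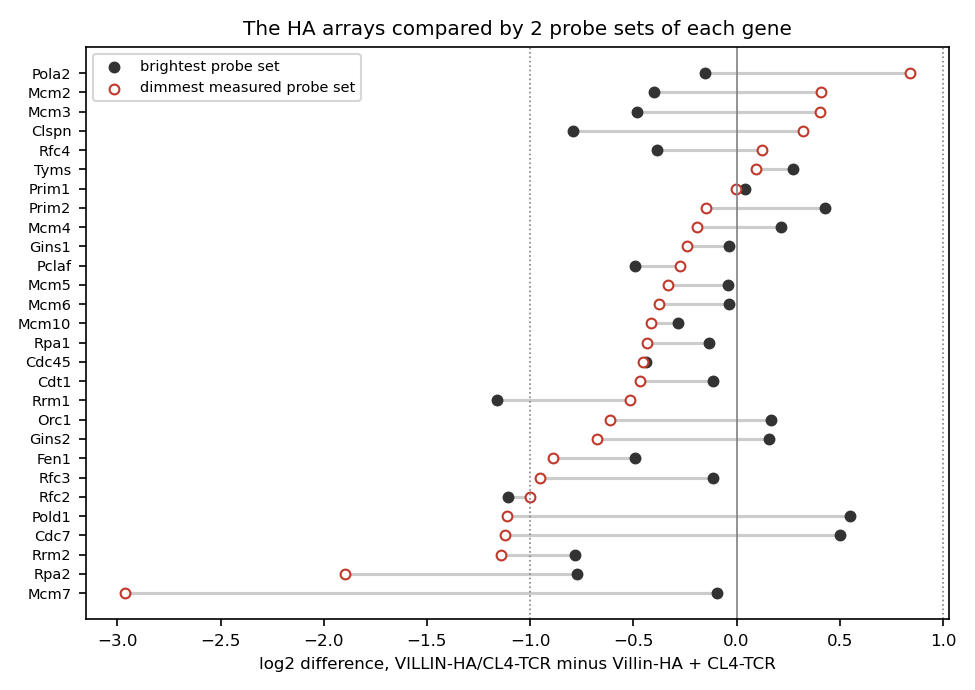
Log2 difference between the HA arrays (x axis, below 0 where Villin-HA + CL4-TCR was the higher) for the 28 genes with several measured probe sets, by the brightest (filled) and the dimmest measured (open) probe set, with 2-fold dotted. Mcm7 has the widest gap, from -0.09 to -2.96, and most open points lie left of the filled ones.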

How the data were processed

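Biotin-labelled cRNA from 6 µg of total RNA per sample was hybridised to 1 one-colour array per group (3 arrays), per the labels' protocols. The deposited values are intensity values that the authors made with MAS5, per the submitters' processing notes, with no version named. MAS5 gives a linear signal per probe set, scaled per array (trimmed mean with 2% off each end, 150 here). A change shared by most transcripts would not appear. The number of arrays limits the precision, and detection calls were not used here.

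Of 45101 probe sets, 34958 named 1 gene in the platform annotation, 932 several and 9211 none. Symbols were updated by Entrez ID to RefSeq (GRCm38.p6) for 34754. The probe set of highest mean signal stood for a gene. Signals below the floor (31.7, the median of all values) were set to it, genes above it on either array counted as measured, and a gene was called higher or lower at 2-fold. There was no test. Alternatives were 7 (another floor, a pseudocount of 16, scaling to the median, quantile normalization, the mean of all probe sets, unique probe sets, a fold of 3) and 1 chosen after seeing the data (the dimmest measured probe set). Calculations used Python 3.11.15, numpy 2.4.6 and pandas 2.3.3 and were tested on simulated data. The simulation changed only genes well above the floor, with less noise than the disagreement between probe sets here. It checks the calculation and gives no measure of error for these arrays. Members and lists were chosen with earlier results of these data known. Named were all members by rule and, of each other pathway list, the 3 highest and 2 lowest genes past 2-fold in each HA comparison. Outside this rule, the pocket protein genes, the further subunits of complexes and some cell type markers were named.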

Additional observations from a re-analysis of the deposited data

Results flagged for a closer look

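Nme1, a nucleoside diphosphate kinase gene of the nucleotide synthesis list, was the 1 gene of 71 examined that passed 2-fold in opposite directions on the HA arrays. Its brightest probe set had 2207 on CL4-TCR, 663 on VILLIN-HA/CL4-TCR and 4945 on Villin-HA + CL4-TCR, a log2 difference between the HA arrays of -2.90, which was not tested. Its other measured probe set gave 0.89 and 0.88 against CL4-TCR.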

How the results depend on the processing

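Counts of higher replication genes against CL4-TCR were 20 to 32 (30 as reported) on VILLIN-HA/CL4-TCR and 25 to 34 (34 as reported) on Villin-HA + CL4-TCR over 8 other settings, lowest with the dimmest measured probe set, which was chosen after seeing the data, and on the latter equally at a fold of 3. No gene was lower under any of these. The median of 1.63 on VILLIN-HA/CL4-TCR was 1.14 with all probe sets of a gene averaged and 0.97 with the dimmest measured probe set. The 3 genes lower on VILLIN-HA/CL4-TCR than on Villin-HA + CL4-TCR became 1 once the arrays shared 1 median and 1 at a fold of 3, and 7 without probe sets matching more than 1 transcript as well as 7 with the dimmest measured probe set. The first removes a shift of 0.26 between these arrays and the second is stricter by construction; the cause of the others was not tested. Scaling to the median moves all genes by 0.06 on VILLIN-HA/CL4-TCR and -0.21 on Villin-HA + CL4-TCR against CL4-TCR. No gene past 2-fold changed sign under the 6 settings recomputed gene by gene. Signals near the floor limit Tyms and the size of the lower bounds.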

Other observations

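Genes of replication-linked repair and the S phase checkpoint, a list of 26 of which 22 were named, were higher for 9 and lower for 1 of 21 measured on VILLIN-HA/CL4-TCR, and higher for 7 and lower for 2 of 22 on Villin-HA + CL4-TCR. Of all measured genes 7.43% were higher and 6.63% lower in the first case and 11.9% and 9.53% in the second, so the lower counts were near those of all genes. Chek1, the checkpoint kinase that slows replication under stress, had signals of 4.5 on CL4-TCR, 487 on VILLIN-HA/CL4-TCR and 545 on Villin-HA + CL4-TCR, at least 15.4-fold and 17.2-fold higher, and its lowest probe set values were 0.61 and 0 on the log2 scale. Rad51ap1, a partner of homologous recombination, had 37.2, 489 and 378 (13.1-fold and 10.2-fold), and its lowest probe set values were 0.08 and 0.76. Rad54l, a motor protein of the same pathway, had 25.5, 245 and 306 (at least 7.74-fold and 9.67-fold), and Brca1 34.6, 263 and 337 (7.61-fold and 9.75-fold), and its lowest were 0 and 0.14. The lower genes were Rad9a, of the checkpoint clamp, at 356, 166 and 96.5, and, on Villin-HA + CL4-TCR, its loader Rad17 at 812, 587 and 371.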
